A study of Mus musculus with 6 samples.

Results

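The AP-1 and EGR immediate early factors are described here as 10 genes: the Fos family (Fos, Fosb, Fosl1 and Fosl2), the Jun family (Jun, Junb and Jund), Atf3, Egr1 and Egr2. They were taken by gene symbol from the protein-coding genes of the series, 10 of 15973 genes in that table and of 53379 gene IDs counted, and 10 of 10 were among the 12572 protein-coding genes with enough counts to be tested. The rule takes genes by name and uses no measured value, but the names were chosen with earlier results of these data known.

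AP-1 is a family of dimers. Fos proteins cannot pair with each other and bind DNA together with a Jun protein, whereas Jun proteins can also pair among themselves or with ATF proteins, and the dimers bind a short palindromic site. EGR proteins are zinc finger factors that bind a GC-rich site. Most of these genes are immediate early genes, which are switched on by growth factors, serum or stress through the MAP kinases and SRF without new protein synthesis, and in mammary carcinoma cells the AP-1 proteins are known for controlling proteases, growth factors and motility genes.

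The cells were 4T1-T, a VM-proficient sub-clone of the mouse mammary carcinoma line 4T1, so every library represents 1 clonal line. Uptake of acetylated low-density lipoprotein (acLDL) is described in the paper as a property of endothelial cells and of some macrophages. The comparison asked how tumor cells that took up much acLDL differed in RNA from those that took up little. Cells seeded at 40% confluency were kept overnight in Opti-Mem without serum and with 0.3% BSA, given Alexa-488 labelled acLDL at 10 ug/mL for 4 h, washed, returned to complete growth medium for 1 h, trypsinized and sorted. The acLDL-high group was the brightest 25% of cells and the acLDL-low group the dimmest 25%, and both groups carried the same label, starvation, serum return and trypsin. There were 3 libraries per group. Replicates 1, 2 and 3 are separate occasions, on each of which 1 acLDL-high and 1 acLDL-low library were made, so the libraries form 3 pairs. An untreated or unsorted population was not analysed here.

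Libraries held between 70263372 and 94216786 counts, so that 3 counts correspond to at most 0.0427 CPM (the count scaled to library size). The smallest count of any of the 10 factors was 1043. For the CPM levels of genes given here, library size was also adjusted by a normalization factor (TMM) of 0.952 to 1.06, which the 0.0427 leaves out. The luminal epithelial markers Krt8, Krt18 and Cdh1 were at 746.4 to 1420 CPM in every library, while of the basal keratins Krt5 had 0 counts and Krt14 was at 31.1 to 249.2 CPM. Summed macrophage markers (10 genes) lay between 10.1 and 12.5 CPM in acLDL-low and between 9.87 and 10.5 CPM in acLDL-high cells, mostly from Cd68, with Adgre1 and Tyrobp at 0 counts. Summed endothelial markers (10 genes) lay between 1.96 and 3.18 CPM in acLDL-low and between 1.80 and 2.64 CPM in acLDL-high cells. The largest part in every library was Tie1, at 0.883 to 2.03 CPM, with Esam, Pecam1 and Cdh5 at lower levels and Emcn, Cldn5 and Erg at 0 counts. Summed fibroblast markers (9 genes) lay between 30.4 and 42.3 CPM in acLDL-low and between 33.1 and 44.7 CPM in acLDL-high cells, mostly from Pdgfra, with Col3a1, Lum and Thy1 at 0 counts. The part of other cell types in the results was not tested.

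Of the 10 factors, Junb, Fos and Fosl2 rose in acLDL-high cells and none fell (edgeR quasi-likelihood test with the occasion as a block, adjusted p under 0.05). The 3 of 10 that rose are read against 3.43% of all genes tested that were called higher, and the 0 of 10 that fell against 1.32% called lower. At an unadjusted p under 0.05 there were 6 factors higher and 1 lower, beside 10.6% and 8.73% of all genes tested. DESeq2 with the same block called 3 higher (Fosl1, Fosl2 and Junb) and 1 lower (Egr1), beside 365 and 103 of all 11328 genes tested. The median log2 fold change was 0.181 over the 10 factors and 0.00168 over all genes tested. In bulk RNA, fewer cells expressing a gene and less RNA per cell cannot be told apart, which holds for each value given here. Without the occasion as a block 0 of the 10 were called. Fits with 1 pair left out, given below, rest on few libraries. Their p-values lean on the spread estimated over all genes, so they are a check and not stronger evidence. Whether one factor's difference was larger than another's was not tested.

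**Figure D1:**
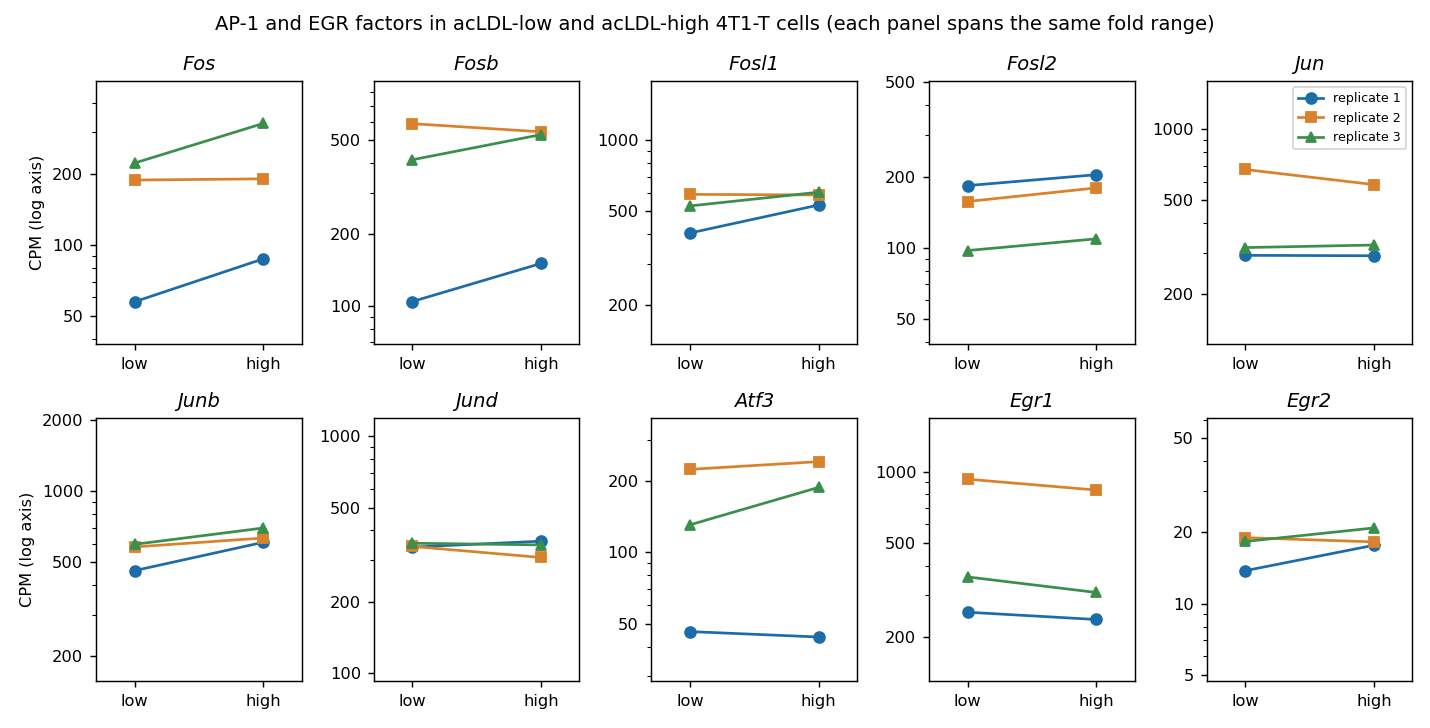
CPM of each of the 10 factors on a log axis in the acLDL-low (left) and acLDL-high (right) library of each replicate, with a line joining the 2 libraries of 1 occasion. Lines for Junb, Fos and Fosl2 slope upward in 3 of 3 occasions and lines for Egr1 downward in 3 of 3, while for Fos, Fosb, Fosl2, Atf3, Jun and Egr1 the distance between occasions is larger than the distance between populations.

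Fos, the prototype of the family and the most transient in induction, lies at chr12:85473890-85477273 on the plus strand of GRCm38. In replicates 1 to 3 the acLDL-low libraries had 57.5, 188 and 222 CPM and the acLDL-high libraries 87.4, 190.4 and 326.5 CPM. The acLDL-high library was the higher one in 3 of 3 pairs, by 0.60, 0.02 and 0.56 on the log2 scale, so replicate 2 contributed almost nothing, and the groups overlapped, with replicate 1 low in both populations. Fos rose 1.31-fold (log2 fold change 0.39, SE 0.09, adjusted p = 0.0223), from 155.9 ± 86.9 to 201.4 ± 120.0 CPM (SD, n = 3). The call was lost with DESeq2 (adjusted p = 0.310) and without replicate 3 (0.273), and the fitted log2 value was 0.58 without replicate 2.

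The promoters of Fos, Fosb, Junb, Jun and Egr2 are shown because the factors are known to regulate one another's genes through sites near the start. Each is the stretch from 250 to 11 bases before the RefSeq start (GRCm38.p6), 5′ to 3′ on the gene's strand. Capitals mark matches on either strand to the AP-1 site TGANTCA, the ATF and AP-1 octamer TGACNTCA, the short CRE site TGACG (which is also part of an octamer whose N is G), the EGR site GCGNGGGCG or the CArG box bound by SRF. Over 32851 RefSeq windows of 300 bases, from 250 before to 50 after a start, 7.81% held the AP-1 site, 8.83% the octamer, 20.8% the short CRE site, 5.55% the EGR site and 1.63% the CArG box. RefSeq windows matched 8 of the 10 factors by symbol, all but Egr1 and Fosl1. There were 12 windows in all, of which 5 belong to Egr2, and several of those overlap. The Fos stretch, chr12:85473640-85473879 on the plus strand, held the short CRE site at -129 and at -66, counted from the start.
Fos: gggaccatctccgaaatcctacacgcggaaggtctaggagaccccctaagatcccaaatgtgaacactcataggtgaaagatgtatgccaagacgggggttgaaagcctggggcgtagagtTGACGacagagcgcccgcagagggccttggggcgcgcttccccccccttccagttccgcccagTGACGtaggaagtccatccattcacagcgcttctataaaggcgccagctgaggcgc

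Fosb encodes a close relative of Fos and lies at chr7:19302696-19310051 on the minus strand. Its level was 104, 588 and 414 CPM in the acLDL-low libraries and 151, 544 and 528 CPM in the acLDL-high libraries. Replicate 1 stood far below the other two in both populations, and the pairs differed by 0.53, -0.11 and 0.35 on the log2 scale, so replicate 2 went the other way. The fitted log2 fold change was 0.25 (SE 0.09), and it did not pass the test (adjusted p = 0.129). It passed without replicate 2, the pair that went the other way (0.44, adjusted p = 1.6e-13), and without the filter on low counts (adjusted p = 0.0102). The p-value without replicate 2 leans on the spread over all genes. The log2 value was 0.12 without replicate 1. Upstream of its start, chr7:19310056-19310295 on the minus strand, a short CRE site at -60 and an EGR site at -50 lay close together.
Fosb: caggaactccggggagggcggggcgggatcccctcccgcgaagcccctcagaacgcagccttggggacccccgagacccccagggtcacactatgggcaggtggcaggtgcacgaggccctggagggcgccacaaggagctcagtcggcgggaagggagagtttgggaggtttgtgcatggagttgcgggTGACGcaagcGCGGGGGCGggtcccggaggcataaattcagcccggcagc

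Fosl1, which encodes Fra-1, a Fos protein that lacks the transactivation domain of Fos and accumulates in invasive mammary tumor cells, lies at chr19:5447547-5455946 on the plus strand. Its level was 404.5, 589 and 527 CPM in the acLDL-low libraries and 531, 586 and 602 CPM in the acLDL-high libraries. The acLDL-low library of replicate 1 was the lowest of the 6, and the pairs differed by 0.39, -0.01 and 0.19 on the log2 scale. The log2 fold change of 0.19 (SE 0.06) did not pass the test (adjusted p = 0.107). It passed with DESeq2 (adjusted p = 0.0463), without the filter on low counts (0.0158) and without replicate 2 (0.29, adjusted p = 4.98e-06), and was 0.093 without replicate 1. Of its exon length, 57.2% overlaps Ccdc85b on the opposite strand, which had a log2 fold change of -0.05 (adjusted p = 0.795) at 9.93 to 13.4 CPM. Libraries were stranded, but the strand setting of the counting is not given in the sources used here, so the level of Fosl1 is uncertain.

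Fosl2, which encodes Fra-2, the other Fra protein, lies at chr5:32135801-32157842 on the plus strand. Its level was 183, 157 and 97.3 CPM in the acLDL-low libraries and 204, 179 and 109 CPM in the acLDL-high libraries. Its pairs were the most even of the 10 factors, with differences of 0.15, 0.19 and 0.16 on the log2 scale, and its occasions ran the other way from those of Fos, highest in replicate 1 and lowest in replicate 3. Fosl2 rose 1.12-fold (log2 fold change 0.17, SE 0.04, adjusted p = 0.0318), although the groups overlapped, at 145.8 ± 44.0 against 163.9 ± 49.1 CPM (SD, n = 3). The call was lost without replicate 2 (adjusted p = 0.0632) and without replicate 3 (0.163). Its RefSeq window held the EGR site GCGGGGGCG at -79, within an exon of a longer annotated transcript.

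Of the Jun family, Junb alone passed the test. Junb, which encodes a Jun protein that often restrains the activity of Jun in growth control, lies at chr8:84974484-84978718 on the minus strand. Its level was 461, 581 and 596 CPM in the acLDL-low libraries and 607.5, 633 and 698 CPM in the acLDL-high libraries. Every acLDL-high library lay above every acLDL-low library, and Junb was the only one of the 10 factors whose groups did not overlap (1 of 10, beside 1.23% of all genes tested with the acLDL-high libraries uniformly above). Junb rose 1.19-fold (log2 fold change 0.25, SE 0.05, adjusted p = 0.0170), from 545.8 ± 73.8 to 646.4 ± 46.8 CPM (SD, n = 3), with pair differences of 0.40, 0.13 and 0.23. The call was lost without replicate 1 (adjusted p = 0.0777) and without replicate 3 (0.120). Prdx2 overlaps 7.52% of its exon length on the opposite strand and had a log2 fold change of 0.04 (adjusted p = 0.655). The Junb stretch, chr8:84978759-84978998 on the minus strand, held 1 short CRE site at -106.
Junb: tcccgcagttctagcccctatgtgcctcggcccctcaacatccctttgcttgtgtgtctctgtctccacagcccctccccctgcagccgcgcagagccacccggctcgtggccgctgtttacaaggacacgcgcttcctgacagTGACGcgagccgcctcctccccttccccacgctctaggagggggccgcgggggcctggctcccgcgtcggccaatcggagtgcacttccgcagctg

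Jun, which encodes the strongest activator of the family and is known to act on its own promoter, lies at chr4:95049034-95052222 on the minus strand. Its level was 293, 675 and 316 CPM in the acLDL-low libraries and 292, 583 and 324 CPM in the acLDL-high libraries. Replicate 2 stood out in both populations, and within pairs the differences were -0.01, -0.21 and 0.04 on the log2 scale. The log2 fold change of -0.06 (SE 0.05) did not pass the test (adjusted p = 0.562), and its sign turned without replicate 2 (0.013). Of the 8 factors with a window, only Jun held an octamer match, at -45 in the stretch chr4:95052233-95052472 on the minus strand. The octamer was added to the search after this window had been seen, so the match was known beforehand. Of all RefSeq windows 8.83% held the octamer.
Jun: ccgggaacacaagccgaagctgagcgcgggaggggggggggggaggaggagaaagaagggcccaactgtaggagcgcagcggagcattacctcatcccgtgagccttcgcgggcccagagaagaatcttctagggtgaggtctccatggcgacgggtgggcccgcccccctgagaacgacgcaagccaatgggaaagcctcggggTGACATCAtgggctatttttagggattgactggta

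Jund, the family member whose level varies least with serum in most cells, lies at chr8:70698949-70700616 on the plus strand. Its level was 340.1, 342.5 and 353 CPM in the acLDL-low libraries and 360.3, 307.5 and 347.5 CPM in the acLDL-high libraries. The libraries of both groups lay within a narrow band with no common order, the pair differences being 0.08, -0.16 and -0.02. The log2 fold change of -0.03 (SE 0.05) did not pass the test (adjusted p = 0.786), and it too turned sign without replicate 2 (0.028). Gm11175, an antisense gene, overlaps 52.6% of its exon length, so the level of Jund is uncertain in the same way as that of Fosl1.

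Atf3, a stress-induced factor of the ATF group that pairs with Jun proteins, lies at chr1:191170296-191218039 on the minus strand. Its level was 46.3, 224.5 and 131 CPM in the acLDL-low libraries and 43.9, 242 and 188 CPM in the acLDL-high libraries. Replicate 1 was far below the others in both populations, and the pair differences of -0.08, 0.11 and 0.53 were uneven, with pair 3 making up most of the fitted value. Its log2 fold change of 0.19 (SE 0.08) did not pass the test (adjusted p = 0.209). It passed without replicate 1 (0.32, adjusted p = 0.00207) and without replicate 2 (0.24, adjusted p = 0.00128), and was 0.023 without replicate 3.

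Egr2, known for its role in myelination and in lymphocytes, was the least abundant factor per length and lies at chr10:67535475-67542188 on the plus strand. Its level was 13.8, 19.0 and 18.3 CPM in the acLDL-low libraries and 17.6, 18.2 and 20.9 CPM in the acLDL-high libraries. Its pairs differed by 0.36, -0.06 and 0.19 on the log2 scale, and the groups overlapped. The log2 fold change of 0.16 (SE 0.08) did not pass the test (adjusted p = 0.270). It passed without replicate 2 (0.27, adjusted p = 0.0180) and was 0.067 without replicate 1. The CArG box was found in 4 of its 5 RefSeq windows and in no window of another factor. Some of the 4 windows overlap and share the same box. Egr1 and Fosl1 had no window, and no window reached more than 250 bases before a start. Sites elsewhere were not searched. The stretch chr10:67537619-67537858 on the plus strand held a CArG box at -72, between short CRE sites at -111 and -55.
Egr2: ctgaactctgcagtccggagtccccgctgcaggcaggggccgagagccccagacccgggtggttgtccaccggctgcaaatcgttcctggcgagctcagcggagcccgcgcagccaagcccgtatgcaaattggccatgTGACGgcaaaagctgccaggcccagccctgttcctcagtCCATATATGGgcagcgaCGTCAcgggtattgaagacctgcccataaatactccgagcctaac

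Across the 12 windows, the short CRE site occurred in 7, belonging to 5 factors, and the AP-1 site in 0. Some of the 7 are overlapping Egr2 windows that share the same sites. Of all RefSeq windows 20.8% held the short CRE site and 7.81% the AP-1 site. The Jund window, chr8:70697489-70697788, ends before the gene start at 70698949 given above. The motif matches describe the letters of the windows and are not bound sites, and no binding was measured here.

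**Figure D2:**
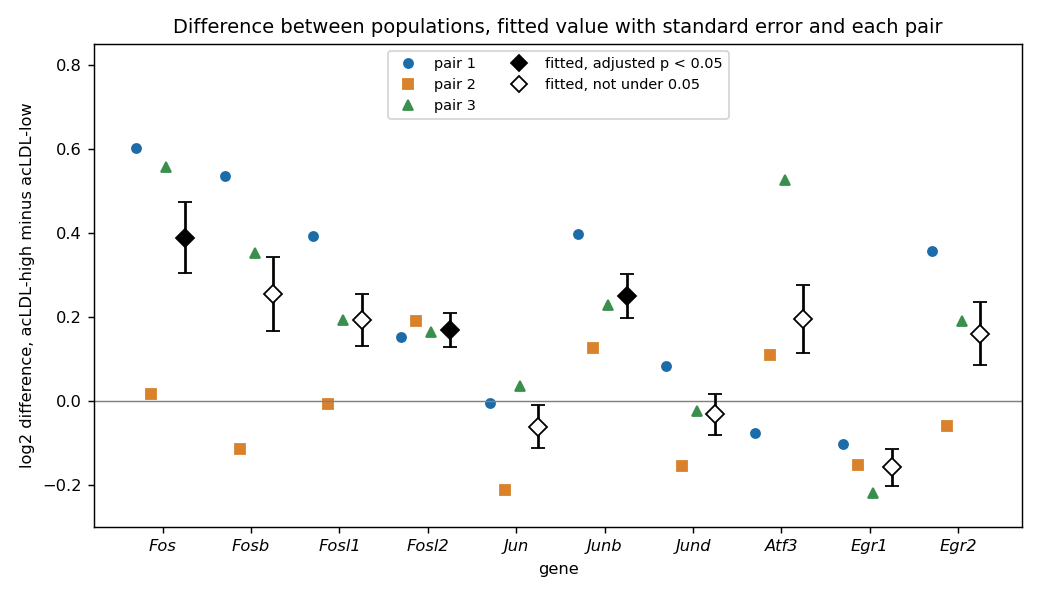
Log2 difference between acLDL-high and acLDL-low cells for each factor, as the 3 pair differences (coloured symbols) and the fitted log2 fold change with its standard error (diamonds, filled where the adjusted p was under 0.05). Junb, Fos and Fosl2 carry filled diamonds, Egr1 lies below zero in every pair, and pair 2 lies below zero for Fosb, Fosl1, Jun, Jund, Egr1 and Egr2.

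Egr1, a serum-induced gene and the prototype of the EGR family, was lower in acLDL-high cells in 3 of 3 pairs, the opposite direction from Fos and Junb. Its level was 254, 929 and 359 CPM in the acLDL-low libraries and 237, 835 and 308 CPM in the acLDL-high libraries. The groups overlapped and replicate 2 was high in both populations, while the pair differences were -0.10, -0.15 and -0.22 on the log2 scale. The log2 fold change was -0.16 (SE 0.04), with means of 513.9 ± 363 and 460.1 ± 327 CPM (SD, n = 3), and it missed the threshold (adjusted p = 0.0586, unadjusted p = 0.0031). It passed with DESeq2 (adjusted p = 0.0209), without the filter on low counts (0.0373) and without replicate 2 (0.0403).

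The 3 occasions did not contribute alike. In pair 1 there were 7 of 10 factors higher in acLDL-high cells, in pair 2 there were 4 and in pair 3 there were 8, whereas of all genes tested 54.8%, 47.4% and 49.8% were higher in the 3 pairs. The median pair difference of the factors was 0.254, -0.0339 and 0.191 on the log2 scale, and that of all genes 0.015, -0.00752 and -0.000217. Only Fos, Fosl2 and Junb were higher in all 3 pairs (30%, against 20.9% of all genes).

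For Atf3, Fosb, Fos, Egr1, Jun and Fosl2 the levels differed more between occasions than between the populations of any pair. For Junb, Fosl1, Egr2 and Jund the largest pair difference exceeded the span between occasions. In the same fit 9 of 10 factors differed between occasions, beside 78% of all genes tested, so the count itself is near the background. Each population had 1 library per occasion, and the 2 libraries of an occasion share it, so this test describes these occasions and not cultures in general. The span between the highest and the lowest occasion, as mean log2 CPM of the 2 populations, had a median of 1.00 over the factors and of 0.453 over all genes tested. It was 2.37 for Atf3, 2.17 for Fosb, 1.93 for Fos and 1.84 for Egr1, values reached or exceeded by fewer than 5% of all genes, and 1.10 for Jun and 0.91 for Fosl2. By contrast Fosl1, Egr2 and Junb spanned 0.34, 0.33 and 0.29, and Jund, the only factor not called (adjusted p = 0.178), 0.11. The occasions had no shared order across the factors. Jun and Egr1 were highest in replicate 2, as was Atf3, whereas Fos was highest in replicate 3 and Fosl2 in replicate 1. What differed between the occasions is not given in the sources used here.

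Per length of exon (RPKM, CPM per kilobase of the union of annotated exons), Fosl1 and Junb were the most abundant factors at means of 266 and 259 RPKM over the 6 libraries. Neither stood above the other, since Fosl1 was higher in 3 of 6 libraries. Levels and shares of Fosl1 and Jund are subject to the opposite-strand overlaps named above. The union holds the exons of all annotated transcripts, 6243 bases for Fosb and 4484 for Egr1. A factor that mainly uses a shorter transcript is understated per length, so the order and the shares are tentative. Jund followed at 205 RPKM, below Junb in 5 of 6 libraries, then Jun at 129.7 RPKM, which was below Jund in 5 of 6. Egr1 was at 109 RPKM, Fos at 76.0, Atf3 at 67.8 and Fosb at 62.2, and these neighbours changed places between libraries, Egr1 being above Fos in 4 of 6, Fos above Atf3 in 4 of 6 and Atf3 above Fosb in 4 of 6. Fosl2 was at 16.0 RPKM, below Fosb in 5 of 6 libraries, and Egr2 at 5.29 RPKM, below Fosl2 in 6 of 6.

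Within the Fos family, Fosl1 was the main transcript per length in every library, with 76.8%, 60.4% and 60.3% of the family's summed RPKM in acLDL-low cells of replicates 1 to 3 and 76.0%, 60.7% and 55.8% in acLDL-high cells. Fos made up 9.44%, 16.7% and 22% in acLDL-low and 10.8%, 17.1% and 26.2% in acLDL-high cells, higher in acLDL-high cells of each pair. The summed family level was 259, 480.4 and 429.8 RPKM in acLDL-low and 344, 475 and 531 RPKM in acLDL-high cells, higher in pairs 1 and 3 and lower in pair 2. Within the Jun family, the share of Junb was 40.4%, 37.7% and 45.4% in acLDL-low and 46.2%, 42.8% and 49.5% in acLDL-high cells. The share of Jund was lower in acLDL-high cells of each pair, at 41.1%, 30.7% and 37.2% against 37.8%, 28.7% and 34.0%, and so was that of Jun, at 18.5%, 31.6% and 17.4% against 16.0%, 28.5% and 16.6%. Shares sum to 100% within a family, so a higher share of one member lowers the others.

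**Figure D3:**
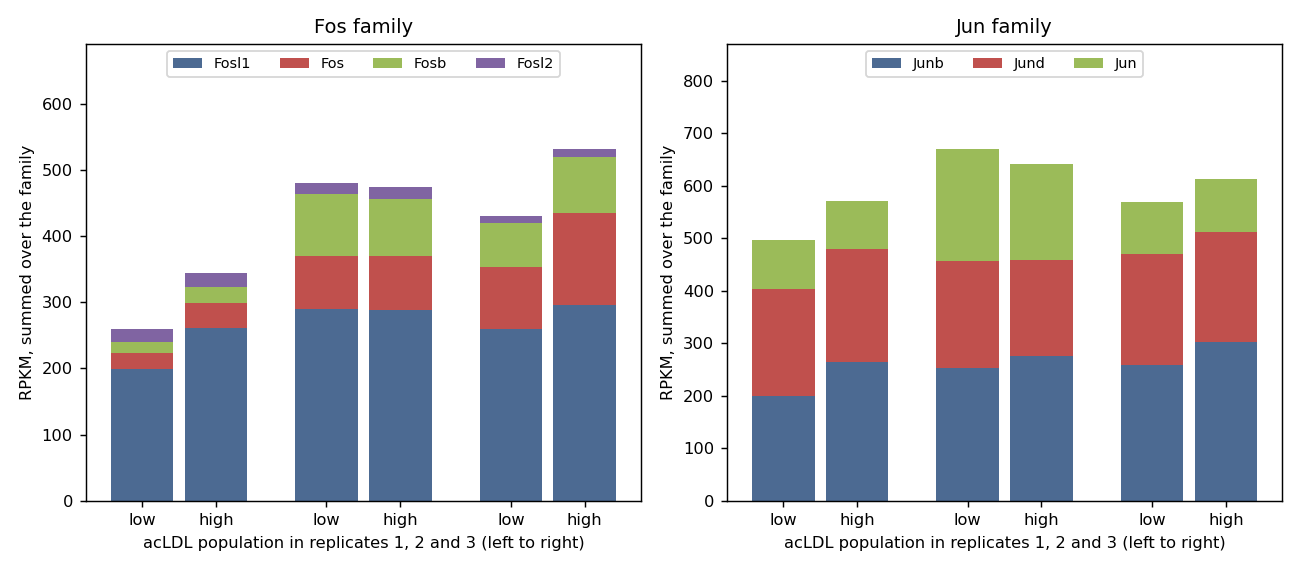
Summed RPKM of the Fos family (left) and the Jun family (right) in each library, stacked by gene, with the acLDL-low and acLDL-high library of replicates 1, 2 and 3 side by side. Fosl1 forms the largest block of the Fos family in every library, and the Junb block is taller in acLDL-high than in acLDL-low cells of each pair.

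Genes that act with these factors were described from lists written from general knowledge with earlier results of these data known, so their counts are not independent support, and calls were taken from the same fit over all genes tested. Upstream, the MAP kinase list (27 genes) had 0 called in either direction with edgeR, 2 higher and 1 lower at an unadjusted p under 0.05 and 0 called with DESeq2, at a median log2 fold change of 0.0178. The smallest p-values belonged to Mapk7, the kinase ERK5, at -0.15 (adjusted p = 0.121) and Mapkapk2, a kinase below p38, at 0.11 (adjusted p = 0.186). Of 7 tested genes for SRF, its ternary complex partners and CREB, 0 were called with edgeR, 2 were higher and 0 lower at an unadjusted p under 0.05, and DESeq2 called 1, at a median of 0.00629. Srf itself had 125.6, 119 and 99.5 CPM in the acLDL-low libraries and 160.7, 118 and 129 CPM in the acLDL-high libraries, again with almost no difference in replicate 2, and its log2 fold change of 0.24 (SE 0.06) missed the threshold (adjusted p = 0.0518). Elk3, a ternary complex factor, had 0.13 (adjusted p = 0.115). These are RNA levels, and the activity of the kinases and of SRF and its partners was not measured.

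Among 11 tested AP-1 partners of the ATF, BATF and MAF groups, 0 rose and 1 fell, at a median of 0.0652. Of all genes tested 3.43% rose and 1.32% fell. At an unadjusted p under 0.05 there were 2 higher and 3 lower, beside 10.6% and 8.73% of all genes, and DESeq2 called 1. The one was Atf4, the central factor of the integrated stress response, with 266, 602 and 372 CPM in the acLDL-low libraries and 221, 548 and 344 CPM in the acLDL-high libraries. It was lower in each pair and had a log2 fold change of -0.17 (SE 0.05, adjusted p = 0.0497), close to the threshold. The count was 0 of 11 without replicate 1, without replicate 3, with at least 10 counts in every library and with all gene types tested. Of 11 tested genes for AP-1 protein turnover and coactivators, 0 were called with edgeR, 0 were higher and 1 lower at an unadjusted p under 0.05 and 0 were called with DESeq2, at a median of -0.0239. Det1, a subunit of the ligase that targets Jun, had a log2 fold change of -0.20 (adjusted p = 0.172), and the acetyltransferase Ep300 of -0.06 (adjusted p = 0.422).

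Of the rest of the EGR system, 3 genes were tested, 1 rose and 0 fell, at a median of 0.223. Of all genes tested 3.43% rose and 1.32% fell. At an unadjusted p under 0.05 there were 3 higher and 0 lower, beside 10.6% and 8.73% of all genes, and DESeq2 called 1. Egr3, which is itself a target of Egr1 in other cells, had 23.6, 20.2 and 53.4 CPM in the acLDL-low libraries and 37.6, 22.5 and 77.3 CPM in the acLDL-high libraries. It was higher in acLDL-high cells of each pair, by 0.67, 0.15 and 0.53, and rose with a log2 fold change of 0.46 (SE 0.08, adjusted p = 0.00464). The corepressors that bind EGR proteins, Nab1 and Nab2, had log2 fold changes of 0.17 and 0.22 and did not pass (adjusted p = 0.0886 and 0.122), each with a difference near zero in replicate 2. Of the 3 genes 0 were called without replicate 3 (1.01% of all genes) and 3 without replicate 2 (6.96% of all genes).

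Of 37 other immediate early genes tested, 13 rose and 1 fell, at a median log2 fold change of 0.165. This compares with 3.43% and 1.32% of all genes tested. Ccn2, a matricellular protein, had 76.0, 149 and 22.1 CPM in the acLDL-low libraries and 107, 229.5 and 38.1 CPM in the acLDL-high libraries, and rose with a log2 fold change of 0.62 (SE 0.05, adjusted p = 4.2e-05). It was higher in each pair, by 0.49, 0.62 and 0.78. The orphan nuclear receptor Nr4a1 rose by 0.36 on the log2 scale, Nfkbiz, a nuclear regulator of NF-kB, by 0.49, the kinase Pim1 by 0.31 and Ier3 by 0.31 (adjusted p between 0.000486 and 0.00399). Myc, the growth-promoting factor and also an immediate early gene, was the one that fell, from 458, 567 and 341 CPM to 351, 437 and 288.5 CPM. Its log2 fold change was -0.33 (SE 0.05, adjusted p = 0.00115), with pair differences of -0.38, -0.38 and -0.24. Of the 37 genes 3 were called without replicate 3 (1.01% of all genes), 20 without replicate 2 (6.96% of all genes) and 11 with DESeq2.

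Of 29 tested genes known as AP-1 or EGR targets in other systems, 12 rose and 0 fell, at a median of 0.229, beside 3.43% and 1.32% of all genes tested. At an unadjusted p under 0.05 there were 18 higher and 1 lower, beside 10.6% and 8.73% of all genes, and DESeq2 called 9. Without replicate 2 there were 19 called (6.96% of all genes) and without replicate 3 there were 8 (1.01% of all genes). The collagenase Mmp13 had 7.14, 2.79 and 10.4 CPM in the acLDL-low libraries and 14.0, 4.74 and 17.6 CPM in the acLDL-high libraries, and rose with a log2 fold change of 0.84 (SE 0.08, adjusted p = 0.000122). It was higher in each pair, by 0.97, 0.76 and 0.76. Ptgs2, the inducible cyclooxygenase, had 878, 2378 and 960.4 CPM in the acLDL-low libraries and 1332, 3001 and 1426 CPM in the acLDL-high libraries, and rose with a log2 fold change of 0.50 (SE 0.06, adjusted p = 0.000277). The gelatinase Mmp9 rose by 0.41, the cytokine Lif by 0.53 and the growth factor Pdgfb by 0.47 on the log2 scale (adjusted p between 0.000311 and 0.000456). These genes have many other regulators, and their dependence on AP-1 or EGR in 4T1-T cells was not tested.

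Heat shock genes, which encode chaperones that stressed cells induce, did not pass the test between the populations. Of 9 tested, 0 were called with edgeR, 0 had an unadjusted p under 0.05 and 0 were called with DESeq2, at a median of 0.0324. Hsph1 and Hspa1b had the smallest p-values, with log2 fold changes of 0.07 and 0.09 (adjusted p = 0.398 and 0.491).

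**Figure D4:**
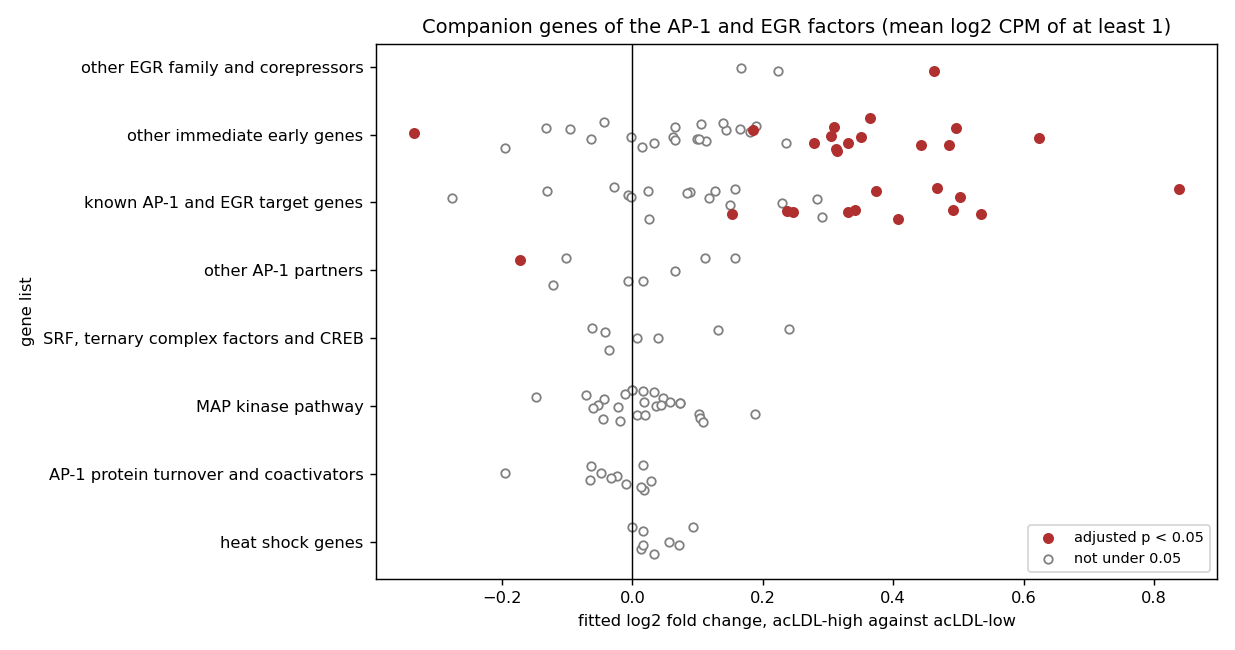
Fitted log2 fold change (acLDL-high against acLDL-low) of 126 genes in 8 lists with a mean log2 CPM of at least 1, 1 point per gene, filled where the adjusted p was under 0.05. The 28 filled points lie mostly among the other immediate early genes and the known targets, on the right of zero except Myc and Atf4, and there are none among the MAP kinase, SRF, turnover and heat shock lists.

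The genes most like Junb over the 6 libraries, by Pearson correlation of log2 CPM among genes outside the 10 factors, were Pls3 (0.966), Nipal1 (0.964), Malt1 (0.964), Polr3k (0.9615) and Foxo1 (0.961). Of these Pls3, Nipal1 and Foxo1 also rose in acLDL-high cells, with log2 fold changes of 0.19, 0.33 and 0.26 (adjusted p = 0.0458, 0.0134 and 0.00669). Of all genes tested 3.43% rose. These 5 genes were picked for likeness to Junb, which itself rose, so such calls follow in part from the choice. The genes most like Fos were Il1rap (0.997), Wdr36 (0.995), Fchsd2 (0.994), Pvr (0.993) and Tmem70 (0.991), and 0 of these 5 were called between the populations, with log2 fold changes from 0.06 to 0.15. Among the factors themselves, Jun and Egr1 had a correlation of 0.985, Fosb and Atf3 of 0.974 and Fos and Fosl2 of -0.742. The 6 libraries come from only 3 occasions, which they share in pairs, so these coefficients describe likeness in these libraries only.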

How the data were processed

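RNA-Seq libraries (stranded mRNA kit, paired reads) from 4T1-T cells sorted for high or low acLDL uptake were analysed, 3 per group. The authors deposited raw counts per Ensembl gene ID, without normalization. Per the submitters' processing notes the tools were STAR 2.5.2a, featureCounts 1.4.3-p1 and DESeq2 1.20.0 with build mm10. The annotation release, strand setting and treatment of reads with several alignments are not given in the sources used here. A further deposited table holds the authors' own DESeq2 comparison (mean, fold change, p-value) and served only to define protein-coding genes and symbols. All per-sample columns were used.

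Counts were tested with edgeR 4.0.16 (R 4.3.3): filterByExpr, TMM, a quasi-likelihood F test blocked on the replicate number, and Benjamini-Hochberg adjustment over 12572 genes at 0.05. SE was taken as log2 fold change over root F. Pair differences used log2 CPM (prior count 2). The numbers mark separate occasions per the series' design text: deviations of same-numbered libraries from their group means correlated at 0.795, 0.846 and 0.799, those of other pairs at -0.557 to -0.0882. No 2 libraries were duplicates (chi-square per degree of freedom of at least 18). P-values between the populations measure how the pair differences vary over these 3 occasions, with the spread pooled in part over all genes. Intervals and floors from counts cover counting error only.

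Positions and exon lengths came from GENCODE M21 (GRCm38), promoters from RefSeq (GRCm38.p6). The octamer was added to the motifs searched after the Jun window had been seen. The 10 factors and all lists were chosen with earlier results of these data known. Named genes were the 10 factors, up to 5 called genes per direction of each list or otherwise the 2 with the smallest p, defining cell type markers, and the 5 genes most like Junb and Fos. Postn, Cldn7 and Esrp1 are markers of those lists. Alternatives were no block, median-of-ratios size factors, DESeq2 1.42.0 with and without the block, no filter, a minimum of 10 counts per library, all gene types, and each pair left out. The procedure was tested on simulated data.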

Additional observations from a re-analysis of the deposited data

Results flagged for a closer look

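The antisense genes that overlap Jun and Jund lie outside the protein-coding table and were counted above the limit that a count of 0 allows (3 counts) in every library. Junos, which shares 7.28% of the exon length of Jun on the opposite strand, had a median count of 805.5 per library and a range of 398 to 1623. It was at 9.53, 6.25 and 15.8 CPM in acLDL-low and at 11.2, 5.53 and 17.5 CPM in acLDL-high cells, lowest in replicate 2, where Jun was highest. In the fit over 16232 genes of any type its log2 fold change was 0.09 (SE 0.08, edgeR adjusted p = 0.615). Gm11175, which shares 52.6% of the exon length of Jund, had a median count of 65.5 per library and a range of 32 to 100, with a log2 fold change of -0.0049 (SE 0.25, adjusted p = 0.996). Whether reads of Jun or Jund entered these counts was not tested.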

How the results depend on the processing

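The number of factors called higher in acLDL-high cells (3) and the 28 of 134 listed genes called both fell to 0 without the replicate block, with edgeR and with DESeq2. Without the block edgeR called 0 of all 12329 genes tested, with 45 at an unadjusted p under 0.05, none of them a factor. Without a filter on low counts 5 factors were called higher and 1 lower, beside 669 and 263 of all 15973 genes tested. DESeq2 with the block called 3 higher and 1 lower, beside 365 and 103 of all 11328 genes tested. Leaving out 1 pair at a time gave 0 to 6 factors higher, 0 to 1 lower and 11 to 44 listed genes. These fits rest on few libraries, so their calls are a check only. Without replicate 3 there were 0 factors higher, beside 0.902% of all genes, and without replicate 2 there were 6 (Fos, Fosb, Fosl1, Junb, Atf3 and Egr2), beside 4.82%. Without replicate 1 the 3 were Fos, Fosl2 and Atf3. With 1 pair left out the log2 value of Jun ranged from -0.11 to 0.013 and that of Jund from -0.089 to 0.028, above zero only without replicate 2, and neither was called. Median-of-ratios size factors, at least 10 counts in every library and all gene types gave the same 3 factors, Fos, Fosl2 and Junb. The cause of these shifts was not tested. The 9 factors that differed between occasions were 9 in each alternative run for that count. Counting floors lie far below the levels of these factors.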

Other observations

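Postn, Cldn7 and Esrp1, markers on the cell type lists, rose in acLDL-high cells. Postn, a matricellular protein of stromal cells, had a log2 fold change of 0.88 (SE 0.22, edgeR adjusted p = 0.0394). It was at 0.515 to 1.24 CPM in acLDL-low and 0.842 to 3.20 CPM in acLDL-high cells. DESeq2 did not call it (adjusted p = 0.128). The fibroblast genes Col3a1, Lum and Thy1 had 0 counts, but Pdgfra was at 28.1 to 42.8 CPM. Pdgfra, Col1a1 and Fap had log2 fold changes of 0.08, 0.16 and -0.46 (edgeR adjusted p = 0.393, 0.733 and 0.553). Pdgfra was higher and Fap lower in acLDL-high cells of each pair. Dcn and Col1a2 had too few counts to be tested. The part of fibroblasts in the Postn difference was not tested. The tight junction gene Cldn7 and the epithelial splicing factor Esrp1 had log2 fold changes of 0.30 and 0.22 (adjusted p = 0.0102 and 0.0456).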
